A study of Homo sapiens with 3 samples.

Results

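The complement genes described here are 9 rows of the deposited gene table of 60605 genes, chosen by gene name: C3, CFB, CFI, C1R, C1S, C4A, CD46, CD55 and CD59. RNA was measured in RCC4, an established human cell line from a clear cell renal carcinoma that lacks functional VHL and here carried a lentiviral Cas9 vector. All 3 libraries came from cells given TNF at 25 ng/mL together with IFN-gamma at 1000 U/mL over 24 h, and each biological replicate pooled 3 flasks of this 1 line. Untreated cells were not analysed here, so every value is a level in treated cells and none is a response to the cytokines. The labels do not say whether the replicates were separate passages, and in bulk RNA fewer cells that make a transcript cannot be told apart from less of it per cell.

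Complement is a cascade of plasma and surface proteins that marks targets for removal. The classical route starts when the proteases C1r and C1s are activated within the C1 complex and C1s cleaves C4 and C2. The alternative route builds its convertase from C3 fragments and factor B. Both meet at C3, the central component. Host cells are protected by CD46, a cofactor for the protease factor I, by CD55, which speeds the decay of convertases, and by CD59, which blocks assembly of the membrane attack pore. Most plasma complement is made by the liver, but kidney epithelium can also transcribe several components.

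Gene reads totalled 29199806 in replicate 1, 26264283 in replicate 2 and 33458691 in replicate 3. The labelled cell type was checked on marker lists: 7 of 8 renal epithelial and carcinoma markers reached a CPM (read count scaled to library size by TMM factors) of 1 in every library, among them KRT8 and PAX2, and the other, NNMT, was listed at 0 with all its exons inside another gene's span. Of markers for cells that also make complement, 1 of 8 for monocytes and macrophages, 0 of 5 for endothelium, 1 of 6 for fibroblasts and 1 of 6 for hepatocytes reached that level. Their summed levels per library were 1.14 to 1.82, 0.0287 to 0.0726, 0.831 to 0.985 and 3.02 to 3.91 RPKM (CPM per kilobase of exon), in that order. The markers that reached it were CSF1R for macrophages (118, 102 and 159 reads), COL1A1 for fibroblasts (221, 209 and 222) and SERPINA1 for hepatocytes (511, 399 and 575). SERPINA1, at 3.80, 3.02 and 3.38 RPKM, made up nearly all of the hepatocyte sum. The leukocyte marker PTPRC and the hepatocyte marker ALB were at 0 reads in every library, and the endothelial marker PECAM1 had 1, 2 and 0. No exon base of PTPRC, ALB or PECAM1 lies inside another gene's span. The limit given for NNMT also holds for CD68, listed at 0 with 100% of its exon length inside other spans. PDGFRA, LYZ and KDR were listed at 0 with 69.4%, 41.6% and 40.9% inside. Replicates 2 and 3 resembled each other more than replicate 1, with a common biological coefficient of variation in edgeR of 0.292 over 3 libraries and 0.0742 without replicate 1.

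Of the 9 genes, 6 reached 1 CPM in every library, against 51.4% of all 19861 protein-coding genes. These 6 were C3, C1S, C1R, CD46, CD55 and C4A. CD59 fell just short, and CFB and CFI had no reads at all, like 5703 of the 19861 protein-coding genes. Together the 9 genes took 0.207%, 0.232% and 0.233% of the reads in replicates 1, 2 and 3. C3 alone held 65.7%, 67.6% and 65.7% of the reads of the 9. By mean RPKM the order was C3, C1S, C1R, CD46, CD55, C4A and CD59, with CFB and CFI last at 0. C1S and C1R changed places with the exon length that was used. Over whole exons the libraries of CD55 and C4A did not overlap, and no ratio between them was tested. With all reads divided by the exon length outside other genes' spans they did overlap. The deposited values hold no read positions, so only the divisor changed. With that divisor the libraries of CD59 also overlapped those of CD55 and of C4A, so the order of CD55, C4A and CD59 is not fixed.

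**Figure D1:**
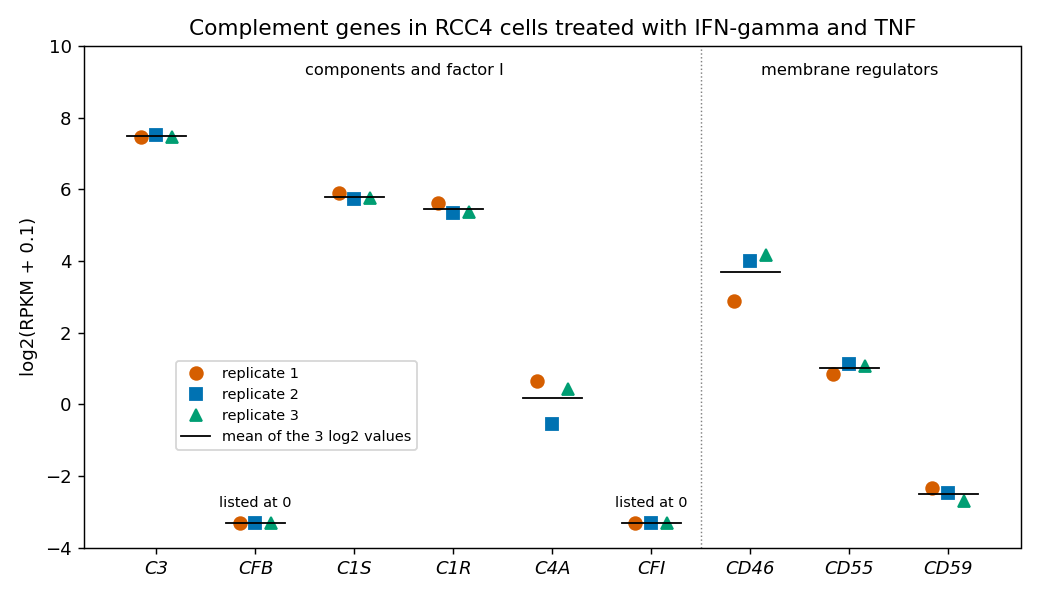
Levels of the 9 genes as log2(RPKM + 0.1), with 1 symbol per library and a bar at the mean of the 3 log2 values. C3 sits highest with its libraries nearly on top of each other, CD46 is lower in replicate 1 than in replicates 2 and 3, C4A is lowest in replicate 2, and CFB and CFI are drawn at the floor because they are listed at 0.

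C3 (ENSG00000125730.17; GRCh38 chromosome 19, 6677704 to 6730562, minus strand) encodes the component on which all routes converge. It had 39755, 41216 and 51192 reads in replicates 1, 2 and 3, or 174, 184 and 177 RPKM. The mean was 178 ± 4.79 RPKM (SD, n = 3), rank 165 of 19861 protein-coding genes. Its coefficient of variation over the libraries was 2.69%, and 2.74% of detected genes had a smaller one. GC content, the share of G and C bases in the transcripts, bears on this value. Genes with a GC content like that of C3 (56.6%) stood higher in replicate 1 by a median of 0.30 on the log2 scale, while C3 stood at -0.05. After correction for GC content its coefficient of variation was 13.3% and its log2 difference of replicate 1 from the others was -0.35.

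C1S and C1R encode the paired serine proteases of the C1 complex. C1S (ENSG00000182326.15; chromosome 12, 6988259 to 7071032, plus strand) stood at 59.4, 52.7 and 54.1 RPKM in replicates 1, 2 and 3. C1R (ENSG00000159403.18; chromosome 12, 7080199 to 7092607, minus strand) stood at 49.3, 40.3 and 41.3 RPKM. Both genes were highest in replicate 1 and nearly equal in replicates 2 and 3. Their ranks among protein-coding genes were 740 and 986. Over the whole exon length C1S exceeded C1R by 0.35 ± 0.07 on the log2 scale (SD, n = 3; 1.27-fold), higher in 3 of 3 libraries and more than 2 SD from 0. An exact two-sided sign-flip permutation gave p = 0.25, the smallest that 3 libraries allow. C1S has 3.54% of its exon length inside the spans of other genes, against 39.3% for C1R, whose neighbour C1RL overlaps it. With all reads divided by the exon length free of such spans, the order turned round and the log2 ratio was -0.32. C1S then stood at 57.4 ± 3.68 and C1R at 71.9 ± 8.12 RPKM. Reads on those bases alone were not counted.

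C1s is held in check by the C1 inhibitor, the product of SERPING1. SERPING1 stood at 24.9, 25.3 and 22.1 RPKM, and C1S exceeded it 2.30-fold, with log2 ratios of 1.25, 1.06 and 1.29 (SD 0.12, n = 3) (exact two-sided sign-flip permutation p = 0.25, the smallest possible). SERPING1 lies outside other genes' spans. No reads were counted for the genes of the recognition part of C1: C1QA, C1QB and C1QC, which also lie outside other spans, had 0 reads in each library. The floor of 3 reads allows up to 0.111 CPM in the shallowest library, for counting error of independent reads only. It would be higher if mates were counted singly.

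C4A (ENSG00000244731.8; chromosome 6, 31982024 to 32002681, plus strand) encodes a form of C4, the substrate of C1s. Its neighbour C4B (ENSG00000224389.9; 32014795 to 32035418 in GENCODE 29, plus strand) is a near-identical copy. The coding sequences of the longest annotated transcripts, each of 5232 bases, differed at 13 bases and were 99.8% identical. Of all 100-base windows of the C4A coding sequence, 87.9% occurred unchanged in C4B, and of 150-base windows 83.1%. The read length was not known here. The 60-base stretch with the most differences is shown because only reads over such positions can be assigned to either gene. It is the coding strand of GRCh38, 5′ to 3′, coding bases 3337 to 3396 counted from the first base of the start codon, and capitals mark the 5 positions at which the genes differ. The stretch crosses an intron, so its genomic limits (chr6:31996061-31996215 for C4A and chr6:32028799-32028953 for C4B) are wider than 60 bases.
C4A: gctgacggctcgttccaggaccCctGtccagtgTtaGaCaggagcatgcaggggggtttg
C4B: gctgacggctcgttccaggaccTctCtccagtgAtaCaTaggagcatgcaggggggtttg

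C4A had 289, 112 and 314 reads, or 1.47, 0.578 and 1.26 RPKM, in replicates 1, 2 and 3. The exact Poisson 95% interval was 257 to 324 reads in replicate 1, 92.2 to 135 in replicate 2 and 280 to 351 in replicate 3. These reads are not scaled to library size, and replicate 2 lay below both others by more than the intervals. The intervals take each read as independent, so they are too narrow if mates were counted singly. C4B had 326, 207 and 280 reads. Between replicates 2 and 3, which were otherwise alike, C4A differed by 1.10 on the log2 scale, whereas C4B was at 7.68 and 8.06 CPM. The sum of both genes was 22.4, 11.8 and 17.1 CPM, so replicate 2 was lowest in the sum as well. The log2 ratio of C4A to C4B was -0.17, -0.79 and 0.15 in the 3 libraries and did not pass the replicate spread (-0.27 ± 0.48, exact two-sided sign-flip permutation p = 0.50). No order between C4A and C4B was fixed, and the level of C4A alone is uncertain because the copies share most of their sequence.

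C2, the other substrate of C1s, stood at 0.811, 0.509 and 0.681 RPKM, with 90.4% of its exon length inside other spans. The C4A/C2 ratio did not pass the replicate spread (log2 0.58 ± 0.37, exact two-sided sign-flip permutation p = 0.25). It passed at 0.79 without replicate 2 and at 1.00 without length scaling. With all reads divided by the exon length outside other spans it was -2.20. The deposited values therefore fix no order between C4A and C2.

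CFB (ENSG00000243649.9; chromosome 6, 31945650 to 31952084, plus strand) encodes factor B, the protease of the alternative convertase, and CFI (ENSG00000205403.14; chromosome 4, 109740694 to 109802179, minus strand) encodes factor I, which cuts C3b and C4b. All 3 libraries list both at 0, and so no ratio to C3, CFD or CD46 was formed. CFB has 99.3% of its exon length, and CFI 96.3%, inside the span of a further protein-coding gene on the same strand. For CFB that gene is XXbac-BPG116M5.17 (ENSG00000244255.5), which also covers part of C2 and had 0 reads in each library. For CFI it is AC004067.6 (ENSG00000285330.1), which had 0, 1 and 0 reads. Only 45.5% of CFB's and 32.0% of CFI's exon length lay inside exons of other genes, and the rest of the overlap was with introns.

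Zeros were common among genes inside other genes' spans, although not general. The deposited table holds 666 protein-coding genes whose exons lie wholly inside the spans of other genes without touching their exons, and 100% of them were at 0 reads in all 3 libraries. Of 3177 protein-coding genes covered by other genes' spans over 80% or more of their exons, 8.75% reached 1 CPM in every library, against 52.4% of the 9483 genes with no such overlap. CFB and CFI belong to these 3177 genes and not to the 666, since they touch other exons. C2, at 90.4% covered, had 123, 76 and 131 reads. How reads in such overlaps were counted is not stated, and the part of this overlap in the values of CFB, CFI and CD59 was not tested. CFB has 36 exon bases and CFI 180 outside other spans. Divided by those bases, the floor of 3 reads is 2.40 to 3.09 RPKM for CFB and 0.480 to 0.618 RPKM for CFI, depending on the library. It covers counting error of independent reads only. Reads that the overlap may have kept from being counted are not covered, so it sets no upper limit on either level. The levels of CFB and CFI are therefore given only as listed.

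**Figure D2:**
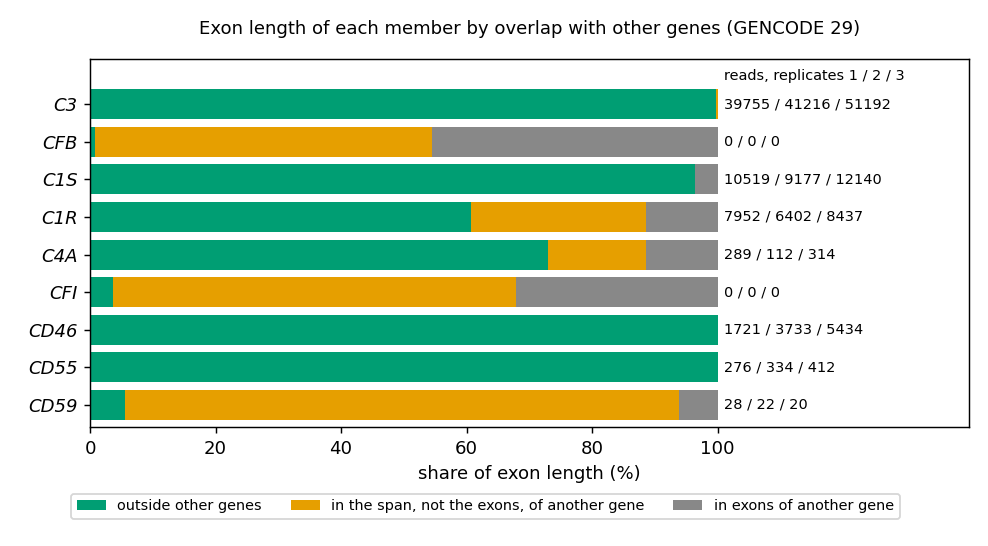
Share of each gene's exon length (percent, GENCODE 29) outside other genes, inside another gene's span but not its exons, and inside another gene's exons, with the reads of replicates 1, 2 and 3 at the right. The 3 genes with under 6% of their exons outside other genes, CFB, CFI and CD59, are those with 0 to 28 reads, while C3, CD46 and CD55 lie almost wholly outside.

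CD46 (ENSG00000117335.20; chromosome 1, 207752057 to 207795513, plus strand), the membrane cofactor for factor I, was the highest membrane regulator as measured. It had 1721, 3733 and 5434 reads, or 7.21, 15.9 and 18.0 RPKM, in replicates 1, 2 and 3, with a mean of 13.7 ± 5.71 RPKM (SD, n = 3). The log2 difference of replicate 1 from the mean of replicates 2 and 3 was -1.23. Among the 6 detected genes 1, CD46, was more than 1 log2 unit lower in replicate 1, against 13.2% of all 11281 detected genes, and 3 (C3, CD46 and CD55) were lower at all, against 48.2%. The transcripts of CD46 have a GC content of 37.9%, in the lowest of 20 bins of detected genes, where the median of replicate 1 against the others was -1.47. After GC correction CD46 stood at 121, 105 and 105 CPM, against 62.8, 138 and 156 CPM before it, and its coefficient of variation was 8.51%, against 41.7% before it.

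CD55 (ENSG00000196352.16; chromosome 1, 207321376 to 207386804, plus strand), the decay accelerating factor, had 276, 334 and 412 reads, or 1.70, 2.10 and 2.01 RPKM. Its libraries lay close together, with a mean of 1.94 ± 0.205 RPKM (SD, n = 3). The log2 ratio of CD55 to CD46 was -2.66 ± 0.57, with CD46 6.32-fold higher and ahead in 3 of 3 libraries. With GC correction the SD fell to 0.09 and the mean stayed at -2.66. The correction works on deviations from each gene's own mean over the 3 libraries, so the mean could hardly move. A GC effect shared by all libraries was not corrected. Neither gene has an exon base inside another gene's span. The exact two-sided sign-flip permutation p was again 0.25, the smallest possible.

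CD59 (ENSG00000085063.17; chromosome 11, 33703010 to 33736491, minus strand), a small glycolipid-anchored inhibitor of the attack pore, had 28, 22 and 20 reads, or 1.02, 0.816 and 0.576 CPM. Over its whole exon length this is 0.0777 ± 0.0215 RPKM (SD, n = 3), against 1.94 ± 0.205 RPKM for CD55. The log2 ratio of CD59 to CD55 was -3.52 ± 0.30 on the log2(RPKM + 0.1) scale, where the pseudocount exceeds CD59's own level; it was -4.50 with a pseudocount of 0.01 and -1.44 with 1, lower in CD59 each time. CD59 has 94.5% of its exon length inside other spans, among them that of RP4-541C22.8 (ENSG00000284969.1) on the same strand, which itself had 14, 21 and 7 reads. With all its reads divided by the 571 exon bases outside other spans, CD59 stood at 1.79, 1.43 and 1.01 RPKM, a mean of 1.41 ± 0.391. The log2 ratio of CD59 to CD55 then became -0.46 and no longer passed the replicate spread. The log2 ratio of CD59 to CD46 was -6.18 ± 0.87 over whole exons and -3.12 with the length outside other spans as divisor. It was between -7.21 and -3.68 with pseudocounts of 0.01 and 1, and passed the replicate spread each time. The low count of CD59 is given as listed, and no order between CD59 and CD55 was fixed. The order of CD59 below CD46 holds only for the values as listed. Neither divisor nor pseudocount covers reads that the overlap may have kept from being counted.

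The log2 ratio of the summed RPKM of CD46, CD55 and CD59 to that of the other members was -4.96, -3.93 and -3.77 in replicates 1, 2 and 3. Its mean was -4.22 ± 0.65 (SD, n = 3), with the components 18.6-fold higher and ahead in 3 of 3 libraries, and replicate 1 stood lowest. The exact two-sided sign-flip permutation p was 0.25, the smallest possible. With GC correction the ratio was -4.24 ± 0.24, where the spread could move but the mean hardly could. C3 makes up most of the larger sum. CFB and CFI enter that sum at 0, and CD59 enters the smaller sum at 0.0777 RPKM, each with most of its exon length inside other spans.

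**Figure D3:**
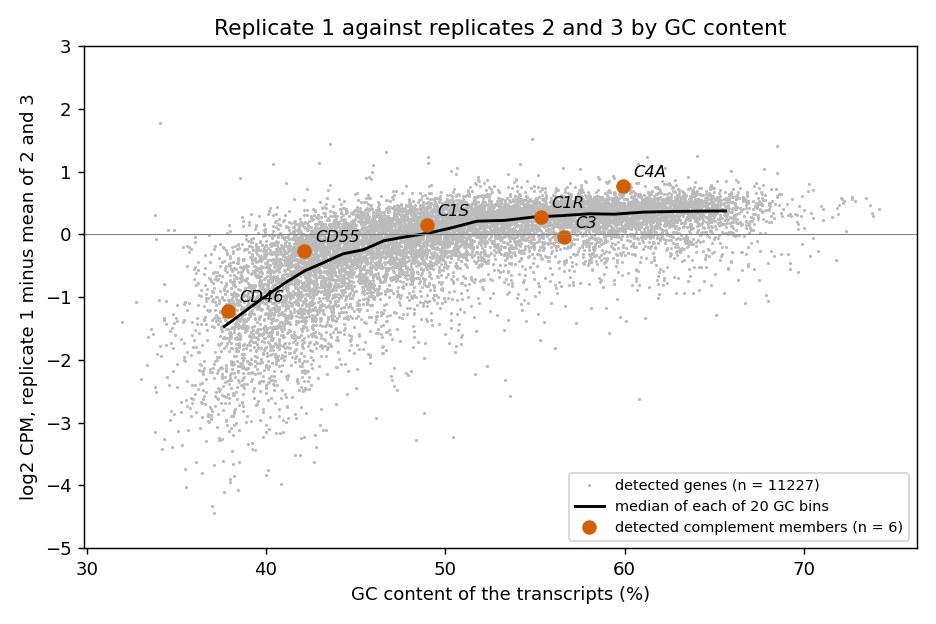
Log2 CPM of replicate 1 minus the mean of replicates 2 and 3 against transcript GC content (percent), for detected genes with a GC value (grey), the median of each of 20 GC bins (line) and the 6 detected complement genes (orange). CD46 at 37.9% GC lies at -1.23 near its bin's median of -1.47, C1R lies on the line, C3 lies below it and C4A above it.

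Set against GC content, C1R followed the detected genes of its bin (0.27 in replicate 1 against the others, bin median 0.27). C1S stood at 0.15 with a bin median of 0.02, CD55 at -0.26 with a bin median of -0.58, and C4A at 0.77 with a bin median of 0.32. Without replicate 1 the coefficient of variation was 2.57% for C3, 1.62% for C1R, 1.89% for C1S, 3.05% for CD55 and 8.64% for CD46, but 52.4% for C4A. Leaving out replicate 1 thus lowered the spread of CD46 and not that of C4A.

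Most other complement genes had few or no reads. Of the 49 other complement genes, 11 reached 1 CPM in every library, against 51.4% of all protein-coding genes. In all libraries 22 of the 49 had 0 reads, against 5703 of the 19861 protein-coding genes. The median level of the 58 complement genes was 0.00633 RPKM, against 0.483 RPKM for all protein-coding genes. In the classical list 6 of 9 genes were detected. C1RL, a protease related to C1R, stood at 9.93 ± 0.451 RPKM (SD, n = 3). None of the 9 lectin pathway genes reached 1 CPM, and MASP1, which encodes a serine protease of that route, had 0 reads in each library.

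In the C3 and alternative list 1 of 4, C3, was detected. CFD, the protease that activates factor B, had 9, 6 and 7 reads, and CFP, which stabilises the convertase, had 0, 6 and 4. In the terminal list 1 of 7 was detected: C5, the first protein of the attack complex, had 59, 79 and 105 reads. C3 averaged 178 RPKM and C5 0.414 RPKM, and the log2 ratio on the log2(RPKM + 0.1) scale was 8.45 ± 0.19, positive in 3 of 3 libraries (exact two-sided sign-flip permutation p = 0.25, the smallest possible). It was 6.99 with a pseudocount of 1 and 8.73 with 0.01. C7, C8A and C8B had 0 reads in each library.

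Among soluble regulators 4 of 14 were detected. SERPING1 was the highest. Also detected were CLU (clusterin, which binds terminal complexes) at 9.67 ± 1.02 RPKM, and C4BPB at 0.685 ± 0.0652 RPKM (SD, n = 3 each). C4BPA, which encodes the alpha chain of C4b-binding protein, had 0 reads in each library.

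Among membrane regulators 3 of 6 were detected, CD46, CD55 and SUSD4, the last at 1.66 ± 0.153 RPKM. CR1 had 0, 4 and 0 reads. Among receptors 2 of 9 were detected: ITGB2, the shared beta chain of complement receptors 3 and 4, at 4.22 ± 0.604 RPKM, and ITGAM, the alpha chain of receptor 3, at 0.256 ± 0.0437 RPKM. The anaphylatoxin receptors C3AR1 and C5AR1 had 36, 20 and 40 reads and 16, 18 and 11 reads.

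**Figure D4:**
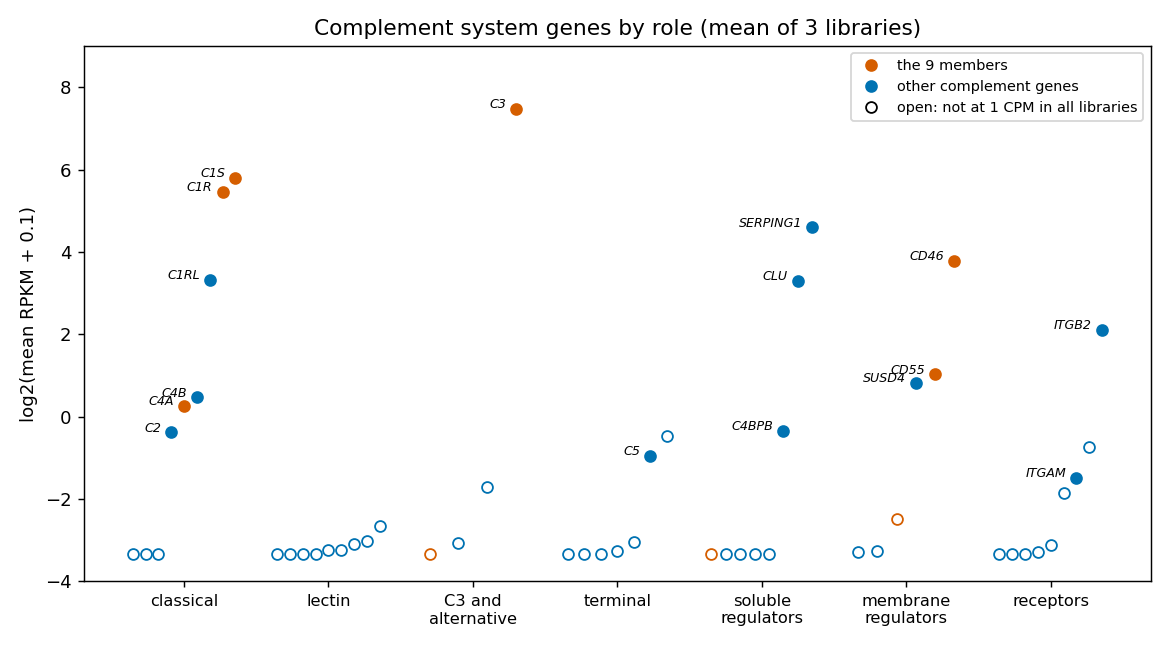
Level of complement genes by role, as log2(mean RPKM + 0.1) over 3 libraries; orange marks the 9 genes and blue other complement genes, and open symbols did not reach 1 CPM in every library. C3, C1S, C1R, SERPING1 and CD46 stand at the top of their roles, while all 9 lectin pathway genes are open symbols.

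The genes most like C3 and CD46 over the 3 libraries were found by Euclidean distance in log2(RPKM + 0.1) among 19860 other protein-coding genes. For C3 these were CNN3 at a distance of 0.125, RPS25 at 0.156 and THBS1 at 0.171, and for CD46 they were RAD21 at 0.0456, RDX at 0.110 and GGH at 0.134. RAD21 stood at 7.10, 15.7 and 17.5 RPKM, lowest in replicate 1 like CD46. With 3 libraries of 1 group this is a likeness of level and of replicate pattern, and it is given as a description.

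GAS elements are known from genes induced by IFN-gamma, and interferon-regulated genes often carry an ISRE; TNF acts through NF-kappa-B. Promoter sequences from RefSeq (GRCh38.p14), 250 bases before to 50 after a gene start, were matched for 6 of the 9 genes with 11 starts; C3, C1S and C4A were not matched. The letters TTCNNNGAA (GAS), the letters GAAA and GAAA with any 2 bases between them (ISRE), and a degenerate kappa-B consensus, were searched on both strands. CFB held both a GAS and an ISRE match, C1R held a GAS match at 1 of 2 starts and CD59 at 2 of 4, where both windows hold the same letters at 1 site, and CD46, CD55 and CFI held none. No member start held a kappa-B match. Of 35116 promoters of this length, 7.66% held the GAS letters, 3.57% the ISRE letters and 5.91% the kappa-B consensus. The CFB promoter and the matching C1R promoter are shown, 5′ to 3′ on the gene's strand, with matches in capitals and no overlap between matches; CFB is chr6:31945845-31946144 (plus strand) and C1R is chr12:7091844-7092143 (minus strand).
CFB: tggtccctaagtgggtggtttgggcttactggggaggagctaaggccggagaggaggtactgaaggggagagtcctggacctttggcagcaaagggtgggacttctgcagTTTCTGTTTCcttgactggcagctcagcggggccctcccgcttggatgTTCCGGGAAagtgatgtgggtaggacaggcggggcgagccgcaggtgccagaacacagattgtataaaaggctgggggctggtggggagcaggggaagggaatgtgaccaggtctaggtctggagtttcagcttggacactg
C1R: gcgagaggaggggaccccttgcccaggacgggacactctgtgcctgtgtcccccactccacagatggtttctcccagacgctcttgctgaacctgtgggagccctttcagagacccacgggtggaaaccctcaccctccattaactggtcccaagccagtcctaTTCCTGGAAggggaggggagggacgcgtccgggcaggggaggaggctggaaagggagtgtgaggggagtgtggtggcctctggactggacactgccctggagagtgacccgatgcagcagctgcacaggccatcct

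In the CFB promoter the ISRE match starts 140 bases, and the GAS match 92 bases, before the gene start; in the C1R promoter the GAS match starts 86 bases before it. These matches describe letters in a window and carry no measurement of binding or of a response.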

How the data were processed

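Poly(A) RNA from 3 libraries of 1 group was sequenced with a directional kit, per the labels' protocols. The submitters' processing notes name featureCounts 2.0.0, HISAT2 2.1.0, cutadapt 1.18, FastQC and build hg38. No source used here states the annotation release, strand setting or options of counting. The deposited table holds a signal per gene: judged from its values, counts scaled by 1 size factor a library. Of nonzero values, 100% were whole multiples of 1 read within 0.01. In replicate 1, 1621 genes had 2 reads and 269 had 1, so mates may have been counted singly. Intervals and floors take each read as independent and cover counting error only. With mates counted singly, the intervals are too narrow and the floors too low. The recovered whole reads took the place of the counts that the design assumed. With 1 group no count test was run and no genes were called changed.

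TMM factors came from edgeR 4.0.16 (R 4.3.3) on 12887 genes with at least 10 reads in each library; DESeq2 1.42.0 size factors were an alternative. Gene models, exon lengths and transcript GC content came from GENCODE 29 (GRCh38), which matched 58337 identifiers (96.3%). RPKM used the union of exons and a pseudocount of 0.1 on the log2 scale. Levels for the exon length outside other spans divided all reads of a gene by that length. Detected means at least 1 CPM in all libraries. A log2 ratio passed the replicate spread when all libraries had 1 sign and the mean exceeded 2 SD. The text names the 9 genes, genes of their 12 fixed pairs, detected genes of 7 complement lists (up to 4 per list) and the 3 nearest genes to the highest component and membrane regulator; other named genes, such as C1QA and the lists' genes with few reads, were picked with their values known. The members, lists and pairs were chosen with earlier results of these data known. The scaling, the GC correction and the ratio rule were tested on simulated data. The simulated ratios had a smaller SD than several real ones, such as 0.87 for CD59/CD46. The ratio rule was not tested at that spread. Some genes of the soluble regulator list are counted but are not reported here by name or in the plot by role.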

Additional observations from a re-analysis of the deposited data

How the results depend on the processing

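No paired analysis was possible because there is 1 group. With exon length counted only where no other gene's span lies, the log2 ratio turned to -0.32 for C1S/C1R and to -2.20 for C4A/C2, and CD59/CD55 no longer passed at -0.46; the first and last hold genes with 39.3% and 94.5% of their exons inside other spans. The C4A/C2 ratio passed at 1.00 without length scaling and, without single replicates, ranged from 0.47 to 0.79. The median log2 level of the 9 genes, 1.02, was 3.55 without length scaling (another unit) and 1.55 with a pseudocount of 1, which compresses low levels. At 10 CPM 9 of 58 complement genes were detected, against 17 at 1 CPM. With GC correction 0 genes were more than 1 log2 unit lower in replicate 1, against 1 without it. Of 131 recomputed ratios, counts and median levels, 122 were classed as unchanged. For ratios this meant the same direction and call, and for median levels a move within 1 SD. Counts so classed could differ somewhat, such as 22 of 58 complement genes at 0.1 CPM against 17 at 1 CPM. Of 99 single-gene levels, 17 moved by more than 1 SD, all of them with another length scaling or pseudocount. Scaling by DESeq2 size factors or total reads changed no call. The ratios could hardly change there, because library scaling cancels within a library except through the pseudocount. These ratios are among the 122. The ratios of CD59 and of C5 moved most with the pseudocount. Counts of CD59 were small, and their intervals cover counting error only.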
